A study of Homo sapiens with 2 samples.

Results

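The genes described here are the core switch that takes a cell from G1 into S phase: the kinases CDK4, CDK6 and CDK2, the cyclins CCND1, CCND3 and CCNE1, the CDK inhibitors CDKN1A and CDKN1B, the retinoblastoma protein RB1 and the transcription factor E2F1. They were taken by symbol, and all 10 were found among the 20981 genes of the deposited tables. The RNA came from cells with the label PANC-1, a widely used human line from a carcinoma of the pancreatic duct, kept in DMEM with serum. One group carried a control short hairpin RNA (shCtrl) and the other a hairpin against WBSCR22 (shWBSCR22), the older symbol of BUD23, a methyltransferase of small-subunit ribosomal RNA. Each group held 1 library, so every difference compares these libraries and not the conditions, no p-value was computed, and the labels do not say whether a clone or a pool of cells carried the hairpin.

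The libraries held 16121638 reads in shCtrl and 15248099 in shWBSCR22, and the 12980 genes whose CPM (the count scaled to the library size) averaged 1 or more were compared. BUD23 had 3487 and 1892 counts (log2 ratio -0.72), in the direction its label names. Its level in shWBSCR22 was 0.609 times that in shCtrl, short of the 2-fold rule set out below, so it was not called. Of 5 ductal markers, KRT8, KRT18 and KRT7 were abundant, with 696, 995 and 250.04 FPKM in shCtrl, whereas KRT19, the keratin most often used to mark ductal cells, had 0 counts in both libraries and EPCAM had 15 and 0. CDKN2A, which PANC-1 is catalogued as having lost by homozygous deletion, had 12740 counts in shCtrl and 6346 in shWBSCR22. The values of KRT19 and CDKN2A go against the label, whereas those of KRT7, KRT8 and KRT18 do not. The name PANC-1 is therefore used here only as the label gives it. Summed counts of 5 fibroblast markers were 945 and 1970, of which COL1A1 gave 839 and 1768. DCN, LUM and PDGFRB had 10 to 64 counts in shCtrl and 44 to 102 in shWBSCR22. Those of 2 endothelial markers summed to 14 and 46, all from PECAM1, and those of 2 leukocyte ones to 31 and 14. COL3A1 and CDH5 were at 0 in both libraries. The part of these markers in the results below was not tested.

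In G1, mitogens raise the D-type cyclins, which activate CDK4 and CDK6. These kinases phosphorylate RB1, which then releases E2F factors, and E2F1 in turn switches on cyclin E and the genes of DNA synthesis; cyclin E with CDK2 completes the phosphorylation of RB1. The INK4 proteins (CDKN2A to CDKN2D) block CDK4 and CDK6, and the CIP/KIP proteins (CDKN1A, or p21, CDKN1B, or p27, and CDKN1C) block CDK2. Loss of CDKN2A and a deregulated G1 are frequent in pancreatic carcinoma.

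The start regions of CDK4 and CDK6, the kinases of the D cyclins, of CDKN1A, the inhibitor with the higher level in shWBSCR22, and of E2F1 are printed so that their promoters can be set beside their levels. Each is the 250 bases before a RefSeq start (GRCh38.p14), written 5′ to 3′ on the strand of the gene, which is the minus strand for CDK4 (chr12:57752311-57752560), CDK6 (chr7:92836574-92836823) and E2F1 (chr20:33686386-33686635) and the plus strand for CDKN1A (chr6:36678464-36678713). Capitals mark the E-box CACGTG, a sequence that MYC and its relatives bind, and the E2F sites TTTCCCGC and TTTGGCGC, searched on both strands.
CDK4: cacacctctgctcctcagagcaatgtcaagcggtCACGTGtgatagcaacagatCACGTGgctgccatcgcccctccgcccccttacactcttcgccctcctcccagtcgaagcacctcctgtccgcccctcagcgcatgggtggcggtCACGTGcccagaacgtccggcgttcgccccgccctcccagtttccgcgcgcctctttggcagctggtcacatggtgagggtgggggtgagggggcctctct
CDK6: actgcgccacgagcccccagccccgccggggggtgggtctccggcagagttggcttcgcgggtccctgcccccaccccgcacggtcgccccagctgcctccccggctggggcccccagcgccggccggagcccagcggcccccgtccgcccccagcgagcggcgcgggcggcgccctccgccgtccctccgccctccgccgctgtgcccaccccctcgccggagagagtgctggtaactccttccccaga
CDKN1A: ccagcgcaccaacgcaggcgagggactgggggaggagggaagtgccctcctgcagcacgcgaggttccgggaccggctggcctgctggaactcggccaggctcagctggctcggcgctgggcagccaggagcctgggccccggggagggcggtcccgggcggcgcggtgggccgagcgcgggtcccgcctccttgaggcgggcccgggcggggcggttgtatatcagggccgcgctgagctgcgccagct
E2F1: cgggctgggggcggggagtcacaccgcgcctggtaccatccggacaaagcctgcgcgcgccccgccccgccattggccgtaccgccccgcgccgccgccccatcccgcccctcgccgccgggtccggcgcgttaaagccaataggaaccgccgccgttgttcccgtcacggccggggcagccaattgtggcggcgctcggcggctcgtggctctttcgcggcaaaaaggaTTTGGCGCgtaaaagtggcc

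The CDK4 window held 3 E-boxes, which began 216, 196 and 101 bases before the start. Of 35116 RefSeq windows of the same length, 6.34% held at least 1 such E-box and 0.0797% (28 windows) held 3 or more. The E2F1 window held TTTGGCGC, beginning 20 bases before the start; 0.550% of windows held it and 1.39% held TTTCCCGC. None of the E-box or E2F letters were in the CDK6 and CDKN1A windows. The GC box GGGCGG, the binding sequence of SP1, occurred 3 times in CDK4 and 3 in the printed CDK6 window. In CDKN1A it occurred 4 times, where 2 of them overlap, and in E2F1 5 times. Of all windows 42.6% held at least 1 and 13.9% held 3 or more. Another RefSeq window of CDK6 (chr7:92833960-92834209), not printed, held 0 GC boxes. The printed starts of CDK4 and CDKN1A lay 3703 and 2254 bases inside their gene spans, those of CDK6 and E2F1 21 and 19. RefSeq windows were matched for 8 of 10 members; CDK2 and CCND1 were not matched. These matches describe letters and show no binding.

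Across the 10 genes, 2 were called lower in the shWBSCR22 library, CDK4 and CCND1, 0 were called higher and 8 were called neither. A gene was called where its TMM-scaled log2 ratio was at least 1 in size, a 2-fold difference, and its 95% counting interval excluded 0. By that rule 11.9% of all genes compared were lower, 12.2% were higher and 24.1% were either, so a count of 2 among 10 is near the background. The median log2 ratio of the 10 genes was -0.18, beside -0.02 over all genes. More genes had about 8 reads than any other low number in shCtrl, and about 15 in shWBSCR22. Whether reads come in groups of those sizes was not tested. As a cautious setting, a wider interval was made from counts divided by 8 and 15. It kept CDK4 and CCND1 as lower, where 2.98% of all genes were lower and 4.19% higher by the same rule, 7.17% in all. In each parenthesis below the counting interval comes first and the wider one second, and both cover the error of drawing reads only. In RNA from whole cultures, fewer cells in a given phase and less RNA per cell cannot be told apart.

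**Figure D1:**
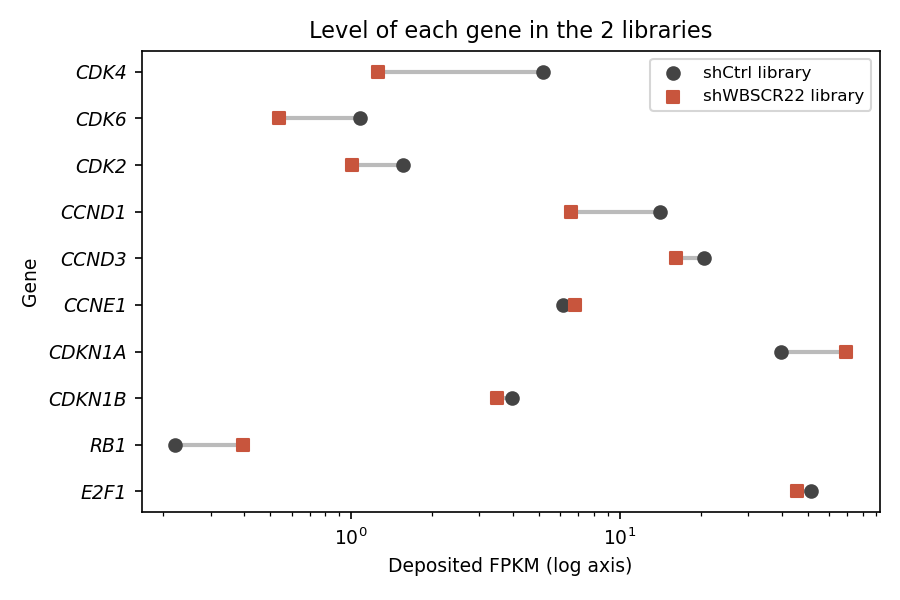
Deposited FPKM (log axis) of each of the 10 genes in the shCtrl library (circles) and the shWBSCR22 library (squares), 1 library per group. CDK4 moved from 5.15 to 1.26 FPKM and CCND1 from 14.1 to 6.60, whereas E2F1 and CDKN1B lay close together.

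CDK4, the main kinase partner of the D cyclins, differed most of the 10. CDK4 (ENSG00000135446, chromosome 12, 57747727 to 57756013, minus strand, GRCh38) gave 264 counts (5.15 FPKM) in shCtrl and 61 (1.26 FPKM) in shWBSCR22. The shWBSCR22 library was the low one, and the level fell by 73.9% (log2 ratio -1.94, -2.37 to -1.54 and -3.89 to -0.47). In shCtrl 35.6% of the genes compared had a higher FPKM than CDK4, and in shWBSCR22 65.3% had. Divided by 8 and 15, its counts come to 33 and 4.07, which sets the width of the second interval. Of 4022 genes at a similar level, with a mean CPM between 0.5 and 2 times that of CDK4, 1.57% had a lower ratio than CDK4 and 11.1% were called lower.

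CDK6, the close relative of CDK4 that also binds D cyclins (chromosome 7, 92604921 to 92836594), had 214 counts (1.08 FPKM) in shCtrl and 101 (0.538 FPKM) in shWBSCR22. Its log2 ratio of -0.91 (-1.27 to -0.57 and -2.39 to 0.34) lay short of the 2-fold rule, and the wider interval held 0. Of 4036 genes at its level, 13.4% had a lower ratio. CDK2, the kinase of cyclins E and A (chromosome 12, 55966769 to 55972784), had 98 and 60 counts, or 1.56 and 1.01 FPKM. Its log2 ratio was -0.54 (-1.03 to -0.06 and -2.63 to 1.17), which 29.9% of 4010 genes at its level lay below. All 3 kinases were thus lower in the shWBSCR22 library by their level, of which CDK4 alone was called. By sign, 6602 of the 12980 genes compared lay below 0.

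Among the cyclins, D1 was lower in shWBSCR22 while D3 and E1 were nearer to even. CCND1, cyclin D1 (ENSG00000110092, chromosome 11, 69641087 to 69654474, plus strand), was read 1098 times in shCtrl (14.1 FPKM) and 488 times in shWBSCR22 (6.60 FPKM). Its level fell by 50.1% (log2 ratio -1.003, -1.16 to -0.85 and -1.60 to -0.44), so it lies at the edge of the 2-fold rule, and with DESeq2 size factors its log2 ratio of -0.99 was no longer called. The wider interval excluded 0. Of 2598 genes at its level, 2.96% had a lower ratio and 3.04% were called lower.

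CCND3, cyclin D3 (chromosome 6, 41934933 to 42050357), had 1921 counts (20.5 FPKM) in shCtrl and 1439 (16.2 FPKM) in shWBSCR22. Its log2 ratio was -0.25 (-0.35 to -0.15 and -0.61 to 0.10), with 27.5% of 1770 genes at its level below it. CCNE1, cyclin E1 (chromosome 19, 29811898 to 29824308), was the cyclin with the higher level in shWBSCR22. It was read 254 and 266 times, at 6.16 and 6.81 FPKM, with a log2 ratio of 0.23 (-0.02 to 0.49 and -0.69 to 1.11), and both intervals held 0.

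**Figure D2:**
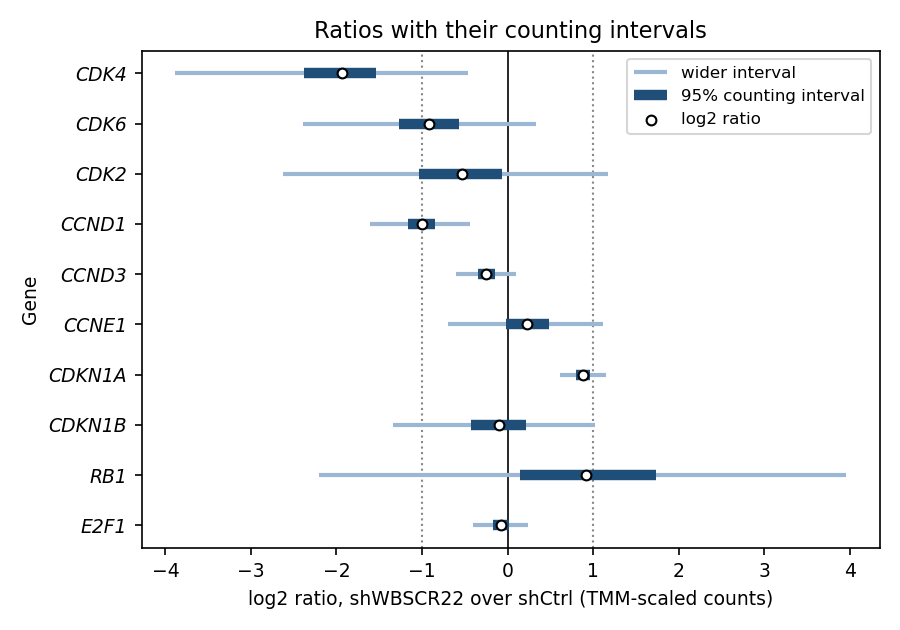
The log2 ratio of shWBSCR22 over shCtrl (x axis, TMM-scaled counts) for each gene (points), with its 95% counting interval (thick bars) and the wider interval from counts divided by 8 and 15 (thin bars); dotted lines mark a 2-fold difference. The wider intervals of CDK4, CCND1 and CDKN1A leave out 0, and that of RB1 runs from -2.20 to 3.96.

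The inhibitor CDKN1A stood on the other side. CDKN1A, or p21, which binds cyclin-CDK complexes (ENSG00000124762, chromosome 6, 36676460 to 36687339, plus strand), was read 1969 times in shCtrl (39.9 FPKM) and 3246 times in shWBSCR22 (69.5 FPKM). It was 1.85 times as high in shWBSCR22 (log2 ratio 0.89, 0.81 to 0.97 and 0.62 to 1.16), which excluded 0 by either interval and stayed short of the 2-fold rule. Over all genes the counting interval lay above 0 for 34.6% and the wider one for 10.8%. Of 1373 genes at its level, 3.93% had a higher ratio and 2.84% were called higher. With 1.5-fold as the size rule CDKN1A and RB1 were called higher and CDK4, CCND1 and CDK6 lower, and 42.1% of all genes were called.

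CDKN1B, or p27, which holds cyclin E-CDK2 inactive in resting cells (chromosome 12, 12715058 to 12722371), had 181 and 150 counts, or 3.98 and 3.49 FPKM. Its log2 ratio was -0.10 (-0.43 to 0.22 and -1.34 to 1.03), and 47.7% of 4016 genes at its level lay below it.

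RB1, the repressor that the G1 kinases inactivate (chromosome 13, 48303726 to 48599436), was the least abundant of the 10. It had 23 counts (0.221 FPKM) in shCtrl and 39 (0.396 FPKM) in shWBSCR22, and in shCtrl 94.5% of the genes compared had a higher FPKM. Its log2 ratio was 0.92 (0.15 to 1.74 and -2.20 to 3.96), and its counts divided by 8 and 15 come to 2.88 and 2.60. At that depth a difference was not detectable with the wider interval. E2F1, the activating factor that RB1 holds in check (ENSG00000101412, chromosome 20, 33675683 to 33686404, minus strand), had the most counts of the members in shCtrl. It was read 2079 and 1753 times, at 51.4 and 45.7 FPKM, with a log2 ratio of -0.08 (-0.17 to 0.01 and -0.41 to 0.24), and both intervals held 0.

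**Figure D3:**
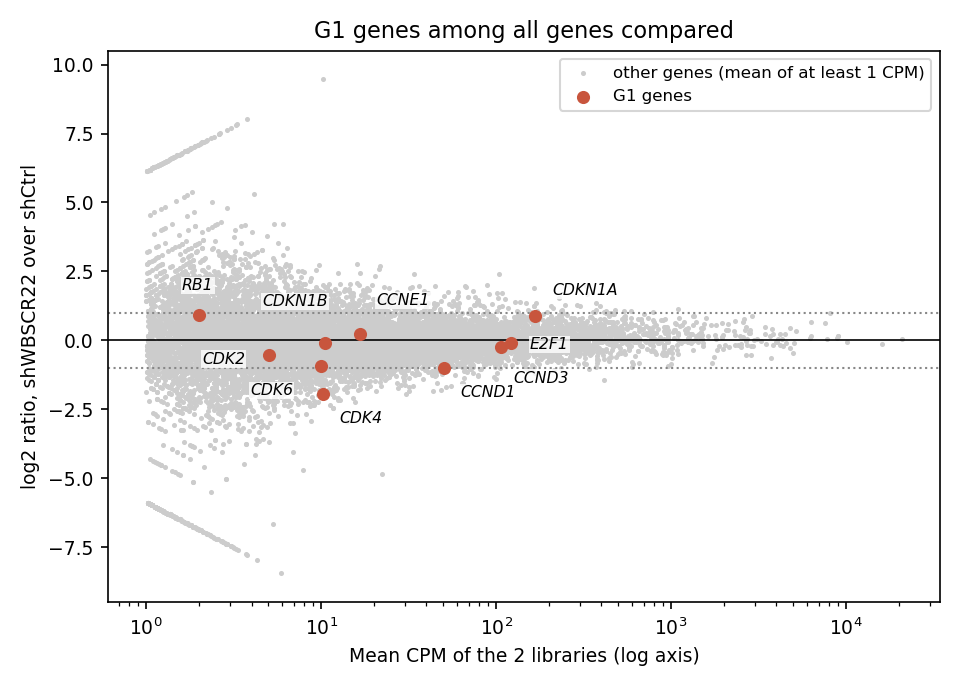
Log2 ratio of shWBSCR22 over shCtrl (y axis) against the mean CPM of the libraries (x axis, log axis) for the 12980 genes compared (grey) and the 10 G1 genes (red); dotted lines mark a 2-fold difference. CDK4, at 10.2 CPM, and CCND1, at 50.06, lie at or past the lower line, and the cloud of other genes widens towards low CPM.

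In order of FPKM, the shCtrl library held E2F1, CDKN1A, CCND3, CCND1, CCNE1, CDK4, CDKN1B, CDK2, CDK6 and RB1. In shWBSCR22 CDKN1A came first, ahead of E2F1, CCNE1 stood ahead of CCND1, and CDKN1B stood ahead of CDK4. The lowest places, from CDK2 to RB1, kept their order. With 1 library per group the spread behind these ranks is unknown, and neighbours as near as CCNE1 and CCND1 in shWBSCR22, 6.81 and 6.60 FPKM, cannot be ordered.

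Ratios between members within a library do not depend on how the libraries were scaled. These pairs were chosen with the members' values known and are given as descriptions. The FPKM of CCND1 was 0.352 times that of CDKN1A in shCtrl and 0.0949 times in shWBSCR22, a log2 difference of -1.89 (-2.07 to -1.72 and -2.52 to -1.24). CCND1 stood at 0.687 times CCND3 in shCtrl and 0.407 times in shWBSCR22 (log2 difference -0.75, -0.94 to -0.57 and -1.43 to -0.06). For these pairs both intervals excluded 0.

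The CDK4 to CDK6 ratio of FPKM was 4.77 in shCtrl and 2.34 in shWBSCR22 (log2 difference -1.03, -1.58 to -0.48 and -3.45 to 1.07). For CDKN1A over CDKN1B it was 10.03 and 19.9 (0.99, 0.66 to 1.33 and -0.15 to 2.28). In the latter pairs the wider interval held 0. For each pair the intervals are exact conditional intervals of an odds ratio.

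Sums over classes follow their most abundant members. CDK4 and CDK6 together had 6.23 FPKM in shCtrl and 1.80 in shWBSCR22, of which CDK4 made up 82.7% and 70.04%. CCND1 and CCND3 together had 34.5 and 22.8, of which CCND1 made up 40.7% and 28.9%. CDKN1A, CDKN1B and CDKN1C together had 79.6 and 119 FPKM, of which CDKN1A made up 50.2% and 58.3%; CDKN1B was slightly lower in shWBSCR22, and none of the 3 was called. The INK4 genes summed to 199 FPKM in shCtrl and 124 in shWBSCR22, and CDKN2A held 91.4% and 77.4% of that sum. CDKN2A alone was thus at 182 and 95.7 FPKM, above each of the 10 members in either library. These sums carry no replicate error.

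**Figure D4:**
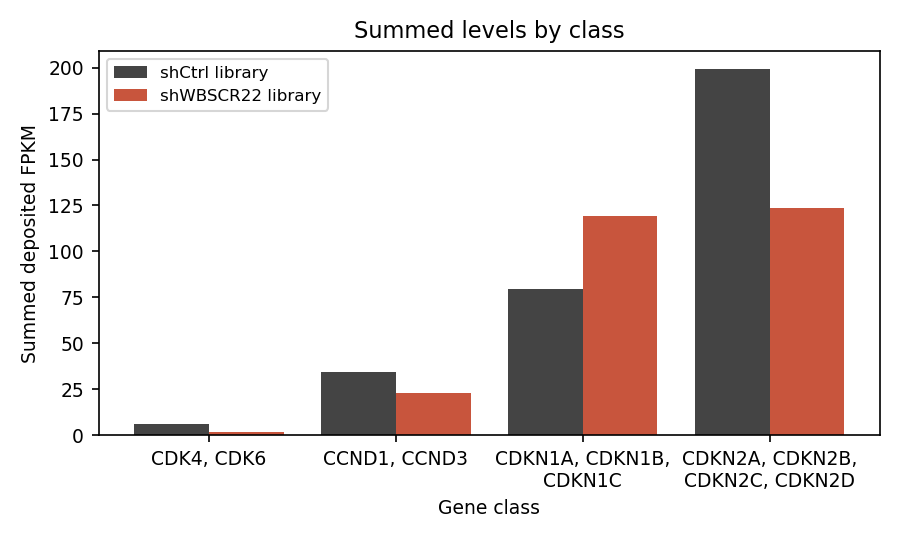
Summed deposited FPKM (y axis, from 0) of CDK4 and CDK6, of CCND1 and CCND3, of the 3 CIP/KIP genes and of the 4 INK4 genes in the shCtrl (dark) and shWBSCR22 (red) libraries, 1 library per group. The CIP/KIP sum is higher in shWBSCR22, at 119 against 79.6, and the other sums are lower there.

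The counts of genes called in the lists that follow stand beside 12.2% higher and 11.9% lower over all genes, or 4.19% and 2.98% with the wider interval. The other CDK inhibitors had ratios of both signs, and of 6 measured 0 were called. CDKN2C, or p18, an INK4 inhibitor, had 724 and 1272 counts (log2 ratio 0.98, 0.85 to 1.11 and 0.53 to 1.42), just short of the rule. CDKN1C, or p57, had 1429 and 1757 (0.46, wider interval 0.12 to 0.81). CDKN2A had a log2 ratio of -0.84 (wider interval -0.998 to -0.68), and its neighbours at 9p21, CDKN2B (176 and 107 counts) and MTAP, an enzyme of methionine salvage (239 and 103), had -0.55 and -1.04. MTAP was called lower with the counting interval only.

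Among other pocket proteins and E2F factors, 3 of 11 were called higher and 1 lower (12.2% and 11.9% over all genes). The median log2 ratio was 0.36, which did not move with E2F7 at the floor value given below. With the wider interval 1 was higher and 1 lower. E2F3, an activating factor like E2F1, had 113 counts in shCtrl and 7 in shWBSCR22 (-3.75, -5.19 to -2.76 and -14.60 to -0.33). E2F7, a repressor of E2F targets, had 0 and 64, or 23.9-fold higher when computed against a floor of 3 counts per library. That floor takes each read as independent and the 64 counts as exact, so the fold is no lower bound. The lower limit of the E2F7 log2 ratio was 4.24 by the counting interval and 0.61 by the wider one. E2F5 (19 and 59 counts, log2 ratio 1.78) and RBL2, or p130 (9 and 24, 1.53), were called higher with the counting interval only. All 4 had at most 113 counts in a library. E2F2 and the partner TFDP1, with 973 to 1732 counts, had 0.43 and 0.48.

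Of the remaining cyclins and kinases of S phase entry, CCNE2, cyclin E2, had 3 counts in shCtrl and 44 in shWBSCR22 (3.83, 2.40 to 6.37 and -0.61 to 17.58), and CCNA2, cyclin A2, had 385 and 305 (-0.17). CCNE2 was called higher with the counting interval only, and it brought the sum of CCNE1 and CCNE2 to 6.20 and 7.47 FPKM. Genes that switch CDKs on or off held 1 of 9 called higher and 0 lower, with a median of -0.02. The higher one was CCNH, the cyclin of the CDK-activating kinase, with 127 and 259 counts (1.19, 0.88 to 1.51 and 0.12 to 2.27). CDC25C, a phosphatase that activates CDKs, had 254 and 440 counts (0.96, wider interval 0.18 to 1.73). CDC37, the co-chaperone that brings CDK4 and other kinases to HSP90, had 9069 and 4875 (-0.73, wider interval -0.91 to -0.55), and WEE1, an inhibitory kinase, 71 and 96 (0.60, wider interval -1.13 to 2.24).

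Parts of the ubiquitin ligases that turn over G1 cyclins and inhibitors held 0 of 13 called higher and 1 lower, with a median of 0.10. FBXW7, which marks cyclin E for destruction, had 53 and 10 counts (-2.18, wider interval -10.03 to 1.15). FBXO4 had 73 and 127 (0.96), RBX1, the RING subunit, 545 and 830 (0.77, wider interval 0.23 to 1.31), and CUL4A, a scaffold, 249 and 369 (0.73). SKP2 and CKS1B, which mark p27, had 761 and 720 counts and 1958 and 2061. Of 7 genes of the MuvB complex, B-MYB and FOXM1, LIN52 was higher (44 and 173 counts, 2.13, wider interval 0.56 to 3.92) and FOXM1, a driver of G2 genes, lower with the counting interval only (218 and 87, -1.15, wider interval -2.75 to 0.16), and the median was 0.37. LIN9 and LIN54, subunits of the MuvB core, had 0.40 and 0.39, with 55 and 65 counts and 100 and 117.

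Of 28 S-phase genes that E2F factors activate, 27 were compared, of which 4 were called lower and 0 higher, around a median log2 ratio of -0.14. The share called lower among all genes was 11.9%. TYMS, which makes thymidylate, had 378 and 158 counts (-1.09, -1.37 to -0.82 and -2.21 to -0.11) and was the 1 gene of the list called lower by either interval. GINS1, of the replicative helicase (132 and 40 counts, -1.54), RFC3, of the clamp loader (82 and 30, -1.27), and DNMT1, the maintenance DNA methyltransferase (248 and 95, -1.21), were lower with the counting interval only. By sign, 12 of the list lay above 0 and 15 below.

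**Figure D5:**
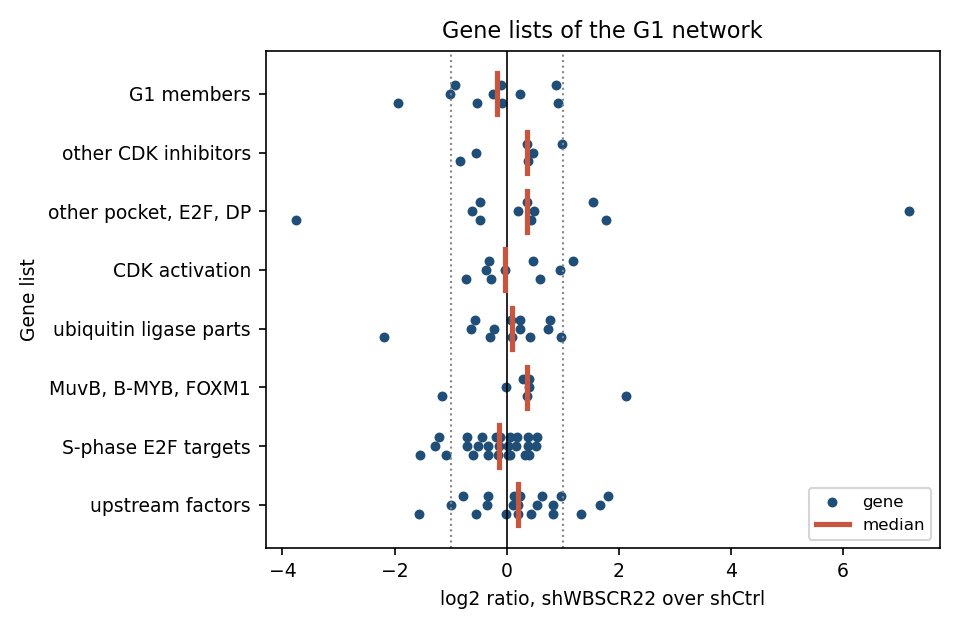
Log2 ratio of shWBSCR22 over shCtrl (x axis) of each gene compared (blue points) in 8 lists of the G1 network (y axis), with the median of each list (red bars); dotted lines mark a 2-fold difference. The medians of these lists run from -0.18 to 0.37, and most genes lie between the dotted lines; the lists with 2 or 3 genes compared, other cyclins and kinases (median 1.83) and 9p21 (-0.84), are not drawn.

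Transcription factors known to act on CCND1, CDKN1A or CDKN1B held 3 of 21 called higher and 1 lower, beside 12.2% and 11.9% over all genes, with a median of 0.21. CTNNB1, or beta-catenin, which activates CCND1, had 229 counts in shCtrl and 69 in shWBSCR22 (-1.56, -1.97 to -1.17 and -3.38 to -0.13). FOXO4, which activates CDKN1B, had 69 and 215 (1.80, 1.41 to 2.22 and 0.49 to 3.21). Both were called by either interval. ETS1 (12 and 35 counts, 1.67) and LEF1, a partner of beta-catenin (14 and 32, 1.33), were called higher with the counting interval only. MYC had 329 and 201 counts (-0.54, wider interval -1.55 to 0.37) and was not called.

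Genes that overlap the members in the genome could bear on their counts, since the labels do not say whether counting used the strand. The overlaps given are those of whole gene spans, introns included, and the overlap of exons was not computed. CDK4 overlaps TSPAN31, a tetraspanin, by 2485 bases and MARCH9, a ubiquitin ligase, by 916, both on the other strand. TSPAN31 had 265 and 202 counts (log2 ratio -0.22) and MARCH9 590 and 572 (0.12), and both wider intervals held 0. CCND1 overlaps ORAOV1 by 1399 bases on the other strand, and ORAOV1 had 75 and 84 counts (0.33). The genes that overlap CDK4 and CCND1 were thus not called lower. CDK2 lies within PMEL, a pigment cell protein, for its whole 6016 bases; PMEL, on the other strand, had 13 and 26 counts (1.14, wider interval -3.05 to 5.50).

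The span of RB1 shares 44298 bases with that of RCBTB2 on the other strand. RCBTB2 had 23 and 41 counts (0.99, wider interval -2.05 to 4.01), nearly the counts of RB1 itself. CDKN1A overlaps DINOL, a noncoding RNA, over 951 bases, and CDK6 overlaps AC002454.1 over 112, each on the other strand and with 8 and 0 counts. AC008115.3, within CDKN1B on the same strand, had 0 and 14, and AL157813.1, within RB1 on the other strand, had 2 and 0. No gene of the table overlapped CCND3, CCNE1 or E2F1. GENCODE release 29 lists processed pseudogenes CDK4P1, CCND3P1 and CCND3P2, which are copies of members and could share reads with CDK4 and CCND3, so these counts are uncertain to that extent.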

How the data were processed

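The authors deposited raw counts per gene and FPKM per gene for 2 libraries, with symbols and coordinates. As tools the submitters' processing notes list HISAT2, StringTie, DESeq, bcl2fastq and FastQC, and as build GRCh38; per the labels' protocols an Illumina TruSeq RNA kit was used; versions, the counting program, strand and removal of duplicates are not stated there. The lengths that the deposited counts and FPKM imply were 1.00 times the exon union of GENCODE release 29 for each member.

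Counts were scaled by TMM (edgeR 4.0.16, R 4.3.3; factors 1.03 and 0.971) over genes averaging 1 CPM or more, 0.5 counts were added, and log2 ratios took exact conditional binomial (Clopper-Pearson) 95% intervals. Without molecular identifiers reads are not independent molecules, so intervals and floors cover counting error only. The wider interval used counts divided by the most frequent low count of each library, averaged over 3 neighbouring counts. Other settings were scaling by DESeq2 (1.42.0), by upper quartile or by the library total, added counts, FPKM pseudocounts, filters and the size rule. With FPKM a gene was called by the size of its log2 ratio alone, without an interval.

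The members, lists and alternatives were chosen with earlier results of these data known. Text names all members, up to 4 genes per list with the largest absolute log2 ratio, overlapping genes, BUD23 and the 9p21 genes. The others (E2F2, TFDP1, SKP2, CKS1B, TK1, CDT1, MCM2, MYC and the cell type markers) were chosen after their values were seen or for their role. Listed genes below 1 CPM were not compared, some listed genes are not reported here, and CCND2 and CDK3 were not analysed here. The acinar and endocrine markers fixed for the cell check were not analysed here.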

Additional observations from a re-analysis of the deposited data

How the results depend on the processing

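No paired analysis was possible because each group holds 1 library, and for the same reason no library could be left out. Of the 10 members, 2 were called lower and 0 higher; 1 was called lower with DESeq2 size factors, with upper-quartile scaling, with FPKM and a pseudocount of 1, and at a mean of at least 5 CPM (CDK4 each time), and 1 at a mean of at least 30 CPM (CCND1, since CDK4 was then not compared). With a 1.5-fold rule 2 were called higher. CDK4 ranged from -2.02 to -1.45 (log2) over 6 settings and CCND1 from -1.09 to -0.99, and no member changed sign. Over all genes 1586 were higher and 1546 lower. These counts became 520 and 455 with FPKM and a pseudocount of 1, where a gene was called by size alone. They became 544 and 387 with the wider interval and 2863 and 3816 with every gene of at least 1 count. At 5 CPM they were 597 and 559, at 30 CPM 114 and 75, and with the 1.5-fold rule 2730 and 2737. Of the other values recomputed (log2 ratios of named genes and medians of lists), 302 kept their side of the rule or stayed within their interval, 20 lost their call and 13 moved outside their interval; the cause was not tested. Low counts, which become small once divided by 8 and 15, limit the wider intervals of RB1, CDK2, CDK6 and CDK4.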
